A study of Mus musculus with 8 samples.

Results

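Azacitidine given alone was compared with vehicle in leukemic progenitor cells recovered from transplanted mice. The comparison took the AZA replicate 1 and 2 libraries against the vehicle replicate 1 and 2 libraries, which are 4 of the 8 libraries in the series, and covered all 12294 genes of the deposited expression table. The AZA group came from mice given azacitidine for 5 days, and the vehicle group from mice given the carrier for the same 5 days. Where the same drug is set on a second background, the AG120_AZA group (azacitidine together with AG120) is compared with the AG120 group (AG120 alone), which share no library with the first comparison. AG120 is ivosidenib, an inhibitor of mutant IDH1. All 4 groups carried the same leukemia, named I1DN in the labels. The alleles behind that name, the strain and age of the host mice, the dose of either drug and the number of mice behind a library are not given in the sources used here. From each mouse the cKit-positive, CD11b-negative cells were taken by flow sorting, a gate for the immature cells of the leukemia. RNA of the CD11b gene and of mature neutrophil genes was still detected in the libraries, as described below. Whether CD11b-positive progeny were carried over was not tested. RNA was read at transcript 3′ ends by QuantSeq, which gives in principle 1 read per transcript whatever its length.

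Azacitidine is a cytidine analogue. It enters cells through nucleoside transporters, is phosphorylated step by step, and goes into RNA and, after reduction by ribonucleotide reductase, into DNA, where it traps DNA methyltransferases so that methylation is diluted as cells divide. In myeloid leukemia it is known for derepressing methylated genes, for inducing interferon-stimulated genes through double-stranded RNA sensors, and for permitting differentiation. Granulocytes mature in steps marked by their granules, with primary (azurophil) granule proteins made by promyelocytes first, and secondary and gelatinase granule proteins afterwards.

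Expression values are log2 CPM, read counts scaled to a common library total and put on a log2 scale, and each pair of values is given as replicate 1 and then replicate 2. A log2 difference is the mean of the AZA libraries minus the mean of the vehicle libraries, with the moderated standard error (SE) of limma. The deposited libraries share 1 distribution, so their depth is unknown. The median gene stood between 105 and 149 distinct values above the lowest value of its library. The correlation between replicates was Pearson r = 0.927 for AZA and 0.921 for vehicle, a description over genes that are not independent replicates. The sort marker cKit was checked by its RNA. Kit stood at 6.65 and 5.54 log2 CPM in the AZA libraries and at 6.31 and 6.59 in the vehicle libraries. Itgam, which encodes CD11b, was detected in both groups, at 4.53 and 3.19 log2 CPM in the AZA libraries and 2.10 and 4.34 in the vehicle libraries. Cd34, a progenitor surface marker, stood at 7.72 and 7.28 log2 CPM in the AZA libraries and 7.91 and 7.31 in the vehicle libraries. The defining B cell genes Cd79a, Pax5, Ebf1 and Ms4a1 were not among the genes of the table.

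No gene passed limma's test at an adjusted p below 0.05 between AZA and vehicle (0 of 12294 genes, Benjamini-Hochberg adjustment). At an unadjusted p below 0.05 there were 432 genes, 3.51% of those tested. Fitted without the mean-variance trend, limma called 2 interferon-inducible genes, Ifi206 and Ifit1bl1, both listed at the lowest value in both vehicle libraries, and fitted on the 4 AZA and vehicle libraries alone it called 1, Ltf. With vooma precision weights it called 0. The smallest adjusted p was 0.26. With 2 libraries against 2, an exact permutation test of a single value cannot go below p = 0.333, so the groups are described below by whether they overlap. Both AZA libraries lay above both vehicle libraries for 1611 genes (13.1%), and both lay below for 1882 genes (15.3%). A random order of the 4 libraries would separate a gene, in either direction, with that same probability of 0.333. Neither number is thus a count of genes shown to respond to azacitidine. The lowest value differs between libraries, so a gene at it in several libraries can count as separated for that reason alone. Each gene list is read against the shares of 13.1% and 15.3%. The median log2 difference over all genes was -0.01, and 6016 genes had a difference above 0.

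**Figure D1:**
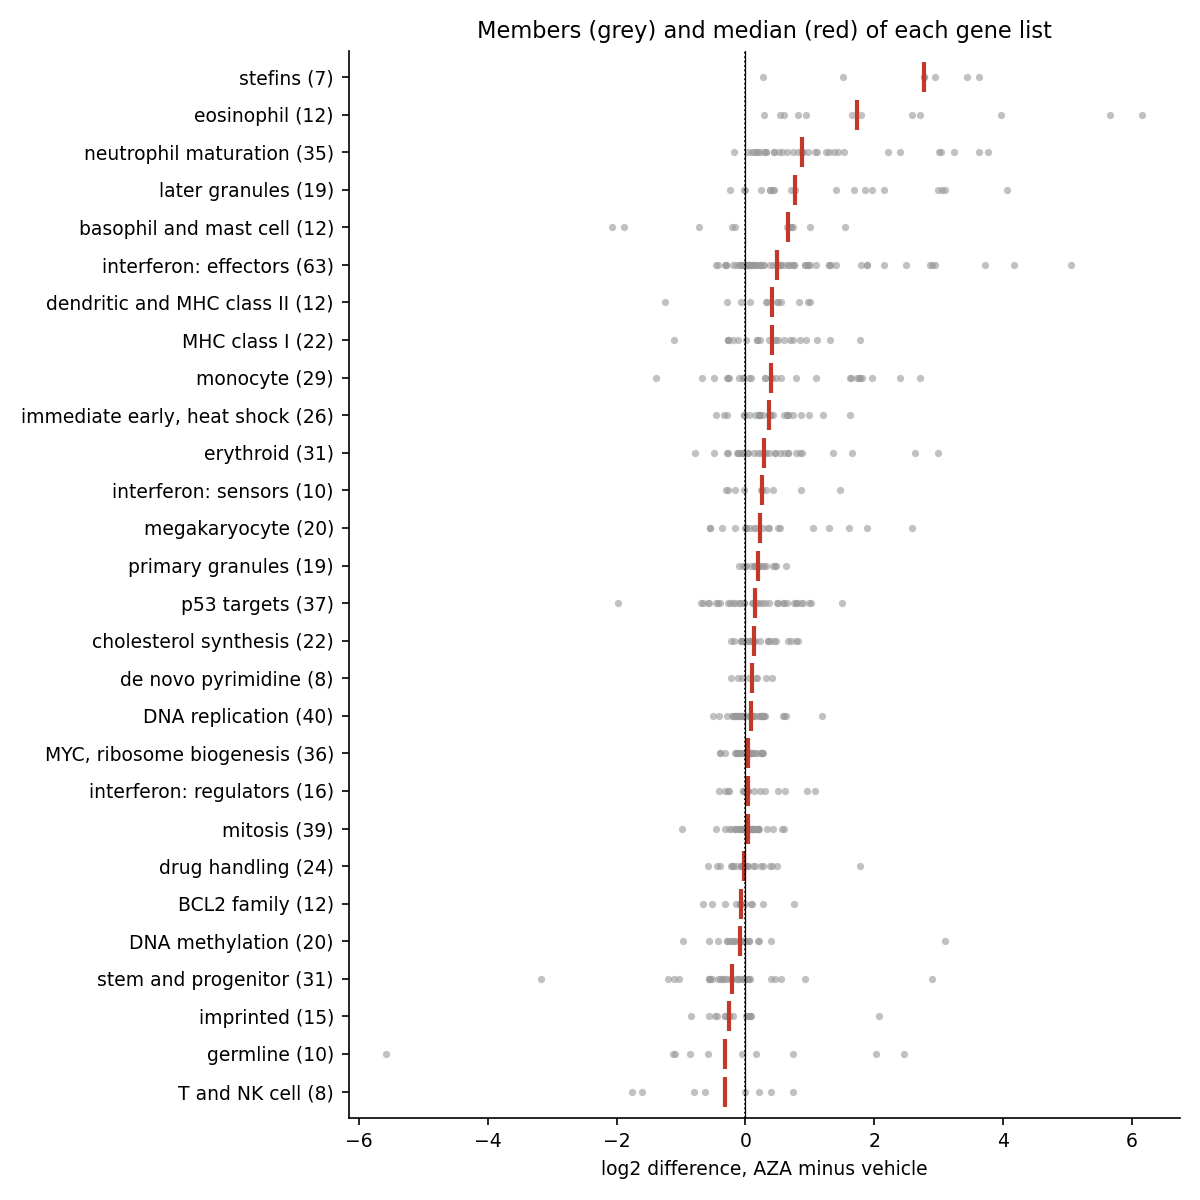
Log2 difference of AZA minus vehicle (horizontal axis, log2 CPM) for the measured members of each gene list with at least 3 measured members (grey points), with the list's median in red. The stefin, eosinophil, mature neutrophil and later granule lists lie farthest to the right, with medians of 2.78, 1.73, 0.88 and 0.77, against -0.01 over all genes.

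Of the 12 higher genes with the smallest unadjusted p among those with a mean of at least 3 log2 CPM and no overlap, 4 belonged to the stefin A family. These are small cytosolic inhibitors of cysteine cathepsins that in mice sit in a gene cluster and are abundant in neutrophils and their precursors. Of 6 measured stefin A genes, 5 had both AZA libraries above both vehicle libraries and all 6 had a positive difference. With Cstb, a stefin outside the cluster, the list of 7 had a median log2 difference of 2.78. That median was 2.16 without AZA replicate 1, 3.43 without AZA replicate 2, 2.21 without vehicle replicate 1 and 3.63 without vehicle replicate 2. Stfa3 stood at 7.66 and 5.96 log2 CPM in the AZA libraries and 2.87 and 3.85 in the vehicle libraries. Its difference was 3.45 ± 0.63 (SE), with a limma adjusted p of 0.461. Stfa2 stood at 7.50 and 6.01 log2 CPM in the AZA libraries and 2.03 and 4.22 in the vehicle libraries. For both genes the lower AZA library, replicate 2, still lay above the higher vehicle library, replicate 2.

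The other members are named in order of their difference. Csta3 stood at 5.70 and 4.38 log2 CPM in the AZA libraries and 1.41 and 2.78 in the vehicle libraries, a difference of 2.95 ± 0.60 (SE). Csta2 stood at 6.74 and 5.44 log2 CPM in the AZA libraries and 2.74 and 3.88 in the vehicle libraries, a difference of 2.78 ± 0.60 (SE). Stfa2l1 stood at 6.94 and 5.70 log2 CPM in the AZA libraries and 2.26 and 4.83 in the vehicle libraries. All 3 were lowest in vehicle replicate 1 and highest in AZA replicate 1, with no overlap between the groups. Stfa1 was the most abundant of the family, at 11.53 and 11.07 log2 CPM in the AZA libraries and 8.37 and 11.20 in the vehicle libraries, and here the groups overlapped because vehicle replicate 2 lay between the AZA libraries. Cstb had a difference of 0.28 with overlapping groups. The 4 members that GENCODE M21 places lie within chr16:36156811-36455392, a stretch of 299 kb. These are paralogs in 1 cluster, and how reads were divided among them is uncertain. Their 3′ ends, which the libraries read, were not compared. The windows at the starts of Stfa2 and Stfa3, the members with the largest differences, are shown. Their promoter windows (RefSeq, GRCm38.p6, 250 bases before to 50 after the start, minus strand, written 5′ to 3′) had 245 of 300 bases equal in alignment (81.7%). The capitals mark the longest run they share, 28 bases. Stfa2 lies at chr16:36408314-36408613 and Stfa3 at chr16:36455343-36455642.
Stfa2: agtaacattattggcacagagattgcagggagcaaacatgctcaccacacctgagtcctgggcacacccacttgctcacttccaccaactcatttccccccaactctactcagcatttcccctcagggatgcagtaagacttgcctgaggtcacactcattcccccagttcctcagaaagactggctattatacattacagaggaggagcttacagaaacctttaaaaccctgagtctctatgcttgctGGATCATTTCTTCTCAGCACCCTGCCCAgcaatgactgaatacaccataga
Stfa3: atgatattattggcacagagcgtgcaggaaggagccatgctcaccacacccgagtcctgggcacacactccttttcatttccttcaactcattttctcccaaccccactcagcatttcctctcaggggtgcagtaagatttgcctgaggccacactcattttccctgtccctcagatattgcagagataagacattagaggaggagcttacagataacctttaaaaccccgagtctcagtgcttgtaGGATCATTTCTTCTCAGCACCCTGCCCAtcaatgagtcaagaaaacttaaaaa

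Genes of the later neutrophil granules and of the primary granules mostly had positive differences, with more separated genes counted among the later granules. The difference between the 2 lists was not tested. Of 19 measured genes of secondary granules and their regulators, 16 had a positive difference. Both AZA libraries lay above both vehicle libraries for 8 (42.1%, background 13.1%) and below for none (background 15.3%). The median difference was 0.77. It was 0.55 without AZA replicate 1, 1.06 without AZA replicate 2, 0.13 without vehicle replicate 1 and 1.56 without vehicle replicate 2. Without vehicle replicate 1, the library lowest in summed neutrophil markers of the 4, the median was thus close to 0.

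The separated genes of this list include those of secondary granule proteins and of a neutrophil surface protein. Ltf, which encodes the secondary granule protein lactoferrin, stood at 7.41 and 6.98 log2 CPM in the AZA libraries and 4.01 and 4.28 in the vehicle libraries. The vehicle libraries lay close together and far below both AZA libraries. Its difference was 3.05 ± 0.64 (SE), with a limma adjusted p of 0.701 over all 8 libraries. That p was 0.00627 when limma was fitted on the 4 AZA and vehicle libraries alone, and 0.0308 without AG120 replicate 2. Camp, the cathelicidin antimicrobial peptide, stood at 9.54 and 8.29 log2 CPM in the AZA libraries and 7.20 and 6.91 in the vehicle libraries, a difference of 1.86 ± 0.60 (SE). Ngp, the neutrophilic granule protein, stood at 9.57 and 9.10 log2 CPM in the AZA libraries and 7.30 and 8.01 in the vehicle libraries, a difference of 1.68 ± 0.50 (SE). In neither gene did the groups overlap, and the gap was narrower for Ngp. Chil3, a chitinase-like protein of granules, stood at 6.67 and 7.35 log2 CPM in the AZA libraries and 5.94 and 5.27 in the vehicle libraries. Cd177, a neutrophil surface glycoprotein, stood at 2.49 and 2.62 log2 CPM in the AZA libraries and 0.56 and 0.24 in the vehicle libraries. Both were higher in both AZA libraries. Mmp8, neutrophil collagenase, stood at 4.65 and 4.60 log2 CPM in the AZA libraries and 2.03 and -0.91 in the vehicle libraries, where replicate 2 lay 3 distinct values above the lowest of its library. Lyz2, lysozyme and the most abundant gene of the list, stood at 10.34 and 9.19 log2 CPM in the AZA libraries and 8.47 and 10.29 in the vehicle libraries, with overlapping groups.

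Promoter windows of Ltf and Ngp are shown because both genes had well-separated groups and hold TTGCNNAA, letters taken from the site bound by C/EBP factors, which drive granulocyte genes. Both strands were searched. Among 19 measured genes of the later granule list, 17 had a RefSeq promoter window, and 6 of these (35.3%) held these letters. Over all 27025 genes of the promoter table the share was 12.2%, and over the genes of the expression table with a window it was 10.0%. It was 33.3% for stefins, 30% for eosinophil, 25% for mature neutrophil and 23.5% for primary granule genes. For monocyte genes it was 15.8%, for interferon effectors 13.5% and for MHC class I genes 11.1%. The higher share was thus not particular to the later granule list. A match is a description of letters only. Ltf (chr9:111019042-111019341, plus strand) holds 1 match, starting 75 bases before the gene's start. Ngp (chr9:110419558-110419857, plus strand) holds 2, the first starting 138 bases before the start. Both windows are RefSeq, GRCm38.p6, 5′ to 3′, with the matches in capitals.
Ltf: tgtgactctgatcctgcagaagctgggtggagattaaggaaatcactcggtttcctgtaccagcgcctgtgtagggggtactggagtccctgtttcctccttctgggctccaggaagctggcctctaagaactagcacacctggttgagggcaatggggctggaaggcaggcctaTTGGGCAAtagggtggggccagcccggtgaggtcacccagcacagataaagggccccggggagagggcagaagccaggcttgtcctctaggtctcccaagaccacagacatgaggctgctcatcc
Ngp: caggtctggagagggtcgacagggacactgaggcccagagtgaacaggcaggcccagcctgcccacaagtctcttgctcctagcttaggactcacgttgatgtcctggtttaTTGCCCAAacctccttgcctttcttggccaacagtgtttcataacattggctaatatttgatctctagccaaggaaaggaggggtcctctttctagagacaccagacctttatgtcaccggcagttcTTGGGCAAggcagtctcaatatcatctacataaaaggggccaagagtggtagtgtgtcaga

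The list of mature neutrophil genes, which serve migration, sensing and the gelatinase granule, had a positive difference in 34 of 35 measured genes. Both AZA libraries lay above both vehicle libraries in 18 (51.4%, background 13.1%), and below in none (background 15.3%). The median difference was 0.88, and it was 0.21 without vehicle replicate 1, 1.40 without vehicle replicate 2, 0.97 without AZA replicate 1 and 0.98 without AZA replicate 2. Mmp9, the gelatinase of neutrophils, stood at 5.82 and 5.83 log2 CPM in the AZA libraries and 2.97 and 1.41 in the vehicle libraries, a difference of 3.63 ± 0.87 (SE). Retnlg, a resistin-like secreted protein of mouse neutrophils, stood at 5.54 and 6.04 log2 CPM in the AZA libraries and 3.06 and 0.98 in the vehicle libraries, a difference of 3.77 ± 0.94 (SE). In both genes vehicle replicate 2 was the lowest of the 4 libraries, unlike the stefins, in which vehicle replicate 1 was mostly the lowest. Trpm2, a calcium channel opened by oxidative stress, was weakly expressed at 3.52 and 3.78 log2 CPM in the AZA libraries and 1.41 and 1.09 in the vehicle libraries. Ly6g, the antigen that defines mouse neutrophils, stood at 2.58 and 3.42 log2 CPM in the AZA libraries and 0.08 and -0.17 in the vehicle libraries. Neither gene overlapped between the groups.

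Inflammatory genes of the same list had smaller differences. Il1b, the cytokine interleukin-1 beta, stood at 3.75 and 3.81 log2 CPM in the AZA libraries and 2.54 and 1.97 in the vehicle libraries. Ccl6, a chemokine, stood at 4.25 and 4.10 log2 CPM in the AZA libraries and 3.33 and 2.43 in the vehicle libraries. Adam8, a membrane metalloprotease of leukocytes, stood at 6.0 and 5.45 log2 CPM in the AZA libraries and 3.89 and 4.80 in the vehicle libraries. These 3 did not overlap between the groups. S100a8, the most abundant gene of the list and a subunit of the calcium-binding protein calprotectin, stood at 12.76 and 12.06 log2 CPM in the AZA libraries and 10.29 and 12.76 in the vehicle libraries. Vehicle replicate 2 matched the higher AZA library for it, so the groups overlapped.

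**Figure D2:**
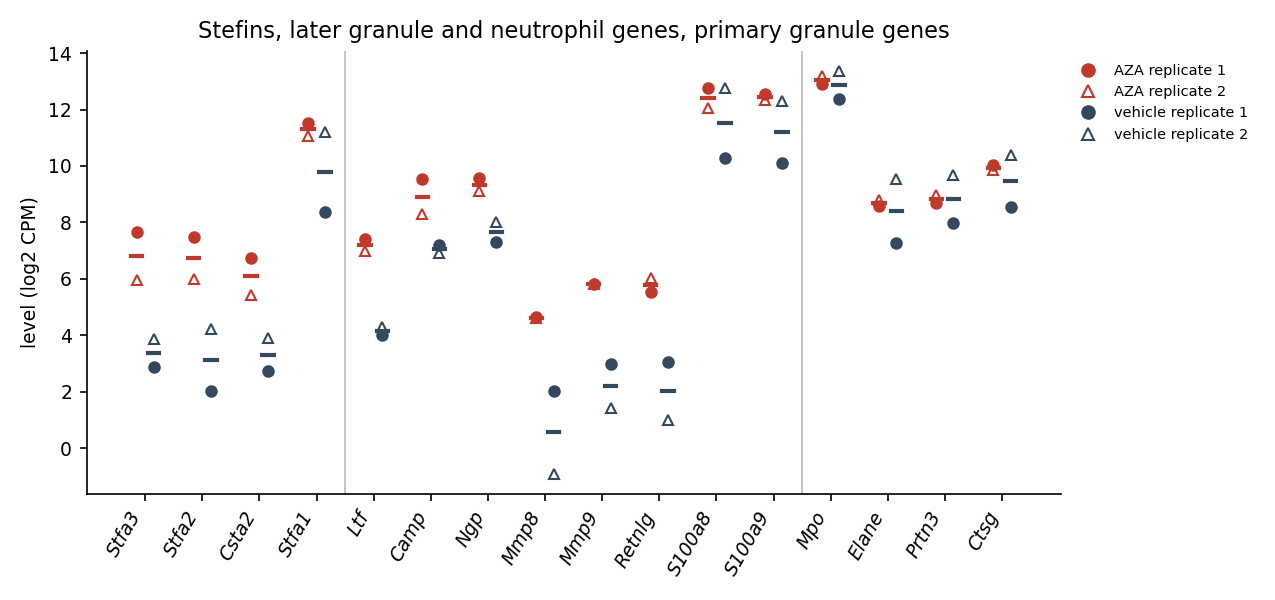
Level of 16 stefin, granule and mature neutrophil genes in each of the 4 libraries (log2 CPM, 1 point per library), AZA beside vehicle. Ltf, Mmp9 and Retnlg separate the groups in both replicates, while Mpo and Elane overlap, with vehicle replicate 2 above both AZA libraries.

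Of 19 measured primary granule genes, 16 had a positive difference, as many as in the later granule list. Both AZA libraries lay above both vehicle libraries for 2 of them (10.5%, background 13.1%) and below for none (background 15.3%). The median difference was 0.20, and without vehicle replicate 1 it was -0.37, the opposite sign. It was 0.82 without vehicle replicate 2, 0.23 without AZA replicate 1 and 0.18 without AZA replicate 2. Mpo, myeloperoxidase and the most abundant gene of the list, stood at 12.92 and 13.20 log2 CPM in the AZA libraries and 12.38 and 13.37 in the vehicle libraries. The vehicle libraries were the lowest and the highest of the 4, with AZA between them. Elane, neutrophil elastase, had the same order at 8.59 and 8.79 log2 CPM in the AZA libraries and 7.28 and 9.53 in the vehicle libraries. The 2 genes without overlap were Hk3, a hexokinase of myeloid cells, with a difference of 0.32 ± 0.46 (SE), and Cd63, a granule membrane tetraspanin, with 0.09 ± 0.29 (SE).

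The libraries themselves differed in summed markers of neutrophils. The 12 neutrophil markers, all measured, summed to 15407 and 11074 CPM in the AZA libraries and to 2867 and 12997 CPM in the vehicle libraries. S100a8 and S100a9 make up much of these sums. The 4 primary granule markers summed to 9591 and 11257 CPM in the AZA libraries and to 6134 and 13486 CPM in the vehicle libraries. Vehicle replicate 1 was thus low in both kinds of marker, and vehicle replicate 2 was high in both. In bulk samples, fewer cells of a type and less RNA per cell cannot be told apart. The part of neutrophil content in the results on stefins and granules was not tested. Of the 12 markers, 9 were lower in vehicle replicate 2 than in either AZA library. The other 3 were Lcn2, which was highest in vehicle replicate 2, S100a8, which tied with AZA replicate 1 for the highest value, and Itgam, which lay between the AZA libraries.

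Eosinophil genes had the highest list median after the stefins, 1.73, with all 12 measured genes positive. Of these, 5 had both AZA libraries above both vehicle libraries (41.7%, background 13.1%). The median rested on genes at or near the lowest value. Restricted to genes with a mean of at least 3 log2 CPM, it was 0.67. It ranged over 1.21 without AZA replicate 2, 1.86 without vehicle replicate 1, 2.23 without AZA replicate 1 and 2.39 without vehicle replicate 2. The Ear genes encode eosinophil-associated ribonucleases. Ear2 stood at 2.36 and 2.79 log2 CPM in the AZA libraries and was listed at the lowest value in both vehicle libraries, -2.74 and -3.43 log2 CPM. Ear10 stood at 2.45 and 3.69 log2 CPM in the AZA libraries and also at the lowest value in both vehicle libraries. Ear1 was weak in AZA replicate 1, at -1.25 and 3.01 log2 CPM in the AZA libraries, and again at the lowest value in both vehicle libraries. Ear6 overlapped, at 0.24 and 2.24 log2 CPM in the AZA libraries and 0.72 and -3.43 in the vehicle libraries. No fold is given for the first 3 because it would depend on the value given to an absence of reads, and division of reads among these paralogs is uncertain. Alox15, a lipoxygenase, was close to the floor too, at 1.06 and 0.13 log2 CPM in the AZA libraries and -2.74 and -1.49 in the vehicle libraries. Better-measured eosinophil genes differed less. Siglecf, a sialic acid receptor, stood at 7.14 and 6.15 log2 CPM in the AZA libraries and 6.13 and 6.09 in the vehicle libraries, a difference of 0.54 ± 0.30 (SE) without overlap. Prg2, eosinophil major basic protein, stood at 7.77 and 7.05 log2 CPM in the AZA libraries and 4.78 and 8.42 in the vehicle libraries, which enclosed the AZA values. The 7 eosinophil markers summed to 386 and 247 CPM in the AZA libraries and to 104 and 435 CPM in the vehicle libraries, so vehicle replicate 2 had the highest sum, and their part in the Ear results was not tested.

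Basophil and mast cell genes were mixed. Of 12 measured genes, 4 (33.3%, background 13.1%) had both AZA libraries above both vehicle libraries and 2 (16.7%, background 15.3%) had them below. The median of 0.66 became 0.21 without AZA replicate 1, 0.23 without AZA replicate 2, 0.16 without vehicle replicate 2 and 0.78 without vehicle replicate 1. Mcpt8, a protease that marks mouse basophils, stood at 3.80 and 4.45 log2 CPM in the AZA libraries and 2.49 and 2.68 in the vehicle libraries, a difference of 1.54 ± 0.33 (SE). Both AZA libraries lay more than 1 log2 unit above both vehicle libraries. Ms4a2, the high-affinity IgE receptor's beta chain, stood at 3.73 and 4.29 log2 CPM in the AZA libraries and 3.66 and 2.94 in the vehicle libraries. Cd200r3, an activating receptor of basophils and mast cells, stood at 4.99 and 4.81 log2 CPM in the AZA libraries and 4.78 and 3.61 in the vehicle libraries. Cpa3, mast cell carboxypeptidase and the most abundant of the list, stood at 9.96 and 10.06 log2 CPM in the AZA libraries and 10.02 and 8.65 in the vehicle libraries. For all 3, vehicle replicate 2 was the lowest library, and for Cpa3 the other vehicle library lay between the AZA libraries. The 2 lower genes, Fcer1a and Il6, were weak. Fcer1a was at the lowest value in both AZA libraries and in vehicle replicate 1, and at -0.17 log2 CPM in vehicle replicate 2. That lowest value was -3.63 and -3.43 log2 CPM in the AZA libraries and -2.74 in vehicle replicate 1. Counting Fcer1a as lower in both AZA libraries thus rests on unequal floors. Il6 stood at -0.68 and -1.46 log2 CPM in the AZA libraries and 1.80 and -0.17 in the vehicle libraries. The 5 basophil and mast cell markers summed to 1029 and 1149 CPM in the AZA libraries and to 1067 and 422 CPM in the vehicle libraries.

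Monocyte and macrophage genes were split between a group higher in AZA and a group with no separation. Of 29 measured genes, 10 had both AZA libraries above both vehicle libraries (34.5%, background 13.1%) and none had them below (background 15.3%). The median difference was 0.40. That median was 0.12 without vehicle replicate 1, 0.69 without vehicle replicate 2, 0.39 without AZA replicate 1 and 0.54 without AZA replicate 2. Lgals3, which encodes galectin-3, a galactoside-binding lectin of macrophages, stood at 5.19 and 4.83 log2 CPM in the AZA libraries and 2.91 and 3.16 in the vehicle libraries. Its difference was 1.97 ± 0.41 (SE) and the groups were far apart relative to their spread, although the limma adjusted p was 0.701. Cd14, the lipopolysaccharide co-receptor, stood at 4.90 and 3.82 log2 CPM in the AZA libraries and -0.09 and 3.39 in the vehicle libraries, where replicate 1 was far lower than replicate 2. Apoe, an apolipoprotein of macrophages, stood at 5.62 and 5.24 log2 CPM in the AZA libraries and 5.16 and 4.74 in the vehicle libraries. For Cd14 the vehicle libraries were far apart, and for Apoe all 4 libraries were close. C1qb, a complement C1q chain, stood at 2.45 and 2.97 log2 CPM in the AZA libraries and 2.10 and 0.08 in the vehicle libraries. Ms4a4c, a membrane protein of monocytes, stood at 2.54 and 2.97 log2 CPM in the AZA libraries and -0.62 and 1.33 in the vehicle libraries. None of these 4 overlapped between the groups. Other genes that define monocytes, chosen after their values were seen, overlapped between the groups. Csf1r, the receptor for macrophage colony-stimulating factor, stood at 8.52 and 8.21 log2 CPM in the AZA libraries and 7.87 and 9.40 in the vehicle libraries. Ly6c2, the antigen of inflammatory monocytes, stood at 6.52 and 5.36 log2 CPM in the AZA libraries and 5.16 and 8.08 in the vehicle libraries. Cx3cr1, a chemokine receptor, stood at 4.54 and 3.16 log2 CPM in the AZA libraries and 4.52 and 5.97 in the vehicle libraries. Vehicle replicate 2 was highest for Csf1r, Ly6c2 and Cx3cr1. The 7 monocyte markers summed to 711 and 524 CPM in the AZA libraries and to 378 and 1203 CPM in the vehicle libraries.

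Irf8, the transcription factor that directs progenitors toward monocytes and dendritic cells, was among the 12 lower genes taken by the naming rule. It stood at 5.32 and 5.39 log2 CPM in the AZA libraries and 5.99 and 7.23 in the vehicle libraries. The AZA libraries were nearly equal and lay below both vehicle libraries, of which replicate 2 was the higher. The difference was -1.26 ± 0.37 (SE), with a limma adjusted p of 1. Of 12 measured dendritic cell genes, 2 had both AZA libraries above both vehicle libraries and 2 had them below. Each share was 16.7%, near the 13.1% above and 15.3% below over all genes. The median difference was 0.41, and 0.02 without AZA replicate 1 and 0.75 without AZA replicate 2. H2-Ab1, an MHC class II beta chain, stood at 5.44 and 4.57 log2 CPM in the AZA libraries and 4.11 and 3.97 in the vehicle libraries. H2-Eb1, another class II beta chain, stood at 6.82 and 6.20 log2 CPM in the AZA libraries and 5.98 and 5.92 in the vehicle libraries. Zbtb46, a factor of conventional dendritic cells, had a difference of -0.29 ± 0.57 (SE) and was lower in both AZA libraries. The class II genes and the 2 transcription factors had opposite signs. The differences of H2-Eb1, 0.56 ± 0.58 (SE), and Zbtb46 were smaller in size than their SE.

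Interferon-stimulated effector genes, the products that block viral RNA and proteins, made up the largest list, with 42.9% of its genes higher in both AZA libraries. That share was larger for the stefins (71.4%) and the mature neutrophil genes (51.4%). Of 63 measured genes, 51 had a positive difference, 27 had both AZA libraries above both vehicle libraries, and 2 had them below. The shares over all genes were 13.1% above and 15.3% below. Their median difference was 0.49, and it was 0.56 without AZA replicate 1, 0.44 without AZA replicate 2, 0.43 without vehicle replicate 1 and 0.56 without vehicle replicate 2, so no single library carried it. Restricted to genes with a mean of at least 3 log2 CPM it was 0.16, so the weakly expressed members had the larger differences.

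Oasl1, a member of the oligoadenylate synthetase family that restrains interferon production in mice, stood at 3.58 and 3.58 log2 CPM in the AZA libraries and 0.72 and 0.72 in the vehicle libraries. Replicates were nearly equal within each group. The difference was 2.86 ± 0.50 (SE), with a limma adjusted p of 0.461. Oas2, which makes the activator of RNase L, stood at 3.46 and 2.39 log2 CPM in the AZA libraries and 0.98 and -0.91 in the vehicle libraries. Oasl2, another member of that family, stood at 3.46 and 4.29 log2 CPM in the AZA libraries and 1.97 and 2.18 in the vehicle libraries. Of the 6 measured Oas genes, 5 had a positive difference and 3 did not overlap. Slfn1, a schlafen gene of myeloid and T cells, stood at 3.52 and 4.96 log2 CPM in the AZA libraries and 1.22 and -0.17 in the vehicle libraries. Slfn4, weakly expressed and named by the rule, stood at 4.09 and 3.87 log2 CPM in the AZA libraries and 1.49 and -0.51 in the vehicle libraries, a difference of 3.48 ± 0.71 (SE). All 8 measured schlafen genes, a family singled out after the values were seen, had a positive difference, and 5 did not overlap. They lie within 335 kb of chromosome 11. Rsad2, viperin, stood at 3.40 and 4.60 log2 CPM in the AZA libraries and 2.94 and 1.27 in the vehicle libraries. Mx1, a dynamin-like antiviral protein, was near the floor, at 0.56 and 1.67 log2 CPM in the AZA libraries and -2.74 and -0.91 in the vehicle libraries. Neither overlapped between the groups.

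The further effectors named here, mostly but not all better expressed than those above, had smaller differences. Ifitm3, a membrane protein that blocks virus entry, stood at 8.83 and 9.95 log2 CPM in the AZA libraries and 7.86 and 8.11 in the vehicle libraries. Its difference was 1.40 ± 0.35 (SE), and AZA replicate 2 was the highest library. Rtp4, an interferon-induced chaperone, stood at 5.21 and 5.78 log2 CPM in the AZA libraries and 4.57 and 3.77 in the vehicle libraries, a difference of 1.33 ± 0.37 (SE). Igtp, an immunity-related GTPase, stood at 5.08 and 4.98 log2 CPM in the AZA libraries and 4.16 and 4.40 in the vehicle libraries. Isg15, the ubiquitin-like modifier, stood at 3.56 and 3.01 log2 CPM in the AZA libraries and 2.49 and 2.14 in the vehicle libraries. None of these 4 overlapped between the groups. Plac8, the most abundant of the list, stood at 10.39 and 10.14 log2 CPM in the AZA libraries and 9.69 and 10.92 in the vehicle libraries, which enclosed the AZA values. The 2 effectors lower in both AZA libraries were Daxx, with a difference of -0.45 ± 0.30 (SE), and Sp110, with -0.30 ± 0.29 (SE). Daxx is a histone chaperone for the variant H3.3 and Sp110 is a nuclear body protein.

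The Ifit genes, whose proteins bind viral RNA lacking a host cap, are shown with their promoters because all 3 measured members had both AZA libraries above both vehicle libraries. They lie within chr19:34583531-34650009. Ifit1 stood at 4.42 and 3.91 log2 CPM in the AZA libraries and 2.84 and 1.18 in the vehicle libraries, a difference of 2.16 ± 0.68 (SE). Ifit3 stood at 3.34 and 3.25 log2 CPM in the AZA libraries and -0.09 and -3.43 in the vehicle libraries, where replicate 2 was at the lowest value and replicate 1 lay 4 distinct values above it, so its difference is set by the floor. Ifit1bl1 was below 2 log2 CPM in every AZA and vehicle library. The motif searched, on both strands, was GAAANNGAAA, the core of the interferon-stimulated response element found in promoters of interferon-induced genes. A match is a description, and no match says only that these letters are not in the window. A promoter window with it was held by 1079 of the 27025 genes in RefSeq's promoters (3.99%). Of the 63 measured effectors 52 had a window, and 26 of these (50%) held the motif. Among effectors whose AZA libraries both lay above vehicle it was 12 of 22 (54.5%), and among the other effectors 14 of 30 (46.7%), shares close to each other. Ifit3 (chr19:34583279-34583578, plus strand) holds 2 matches, the first starting 156 bases before the gene's start. Ifit1 (chr19:34640639-34640938, plus strand) holds 2, the first starting 104 bases before the start. Oasl1 has none in its window. Both windows are RefSeq, GRCm38.p6, 5′ to 3′, with matches in capitals.
Ifit3: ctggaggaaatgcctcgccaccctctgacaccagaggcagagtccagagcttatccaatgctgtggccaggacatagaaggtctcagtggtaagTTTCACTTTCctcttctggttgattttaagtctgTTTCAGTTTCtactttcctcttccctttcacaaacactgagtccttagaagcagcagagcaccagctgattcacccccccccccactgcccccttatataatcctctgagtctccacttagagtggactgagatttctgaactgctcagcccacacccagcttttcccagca
Ifit1: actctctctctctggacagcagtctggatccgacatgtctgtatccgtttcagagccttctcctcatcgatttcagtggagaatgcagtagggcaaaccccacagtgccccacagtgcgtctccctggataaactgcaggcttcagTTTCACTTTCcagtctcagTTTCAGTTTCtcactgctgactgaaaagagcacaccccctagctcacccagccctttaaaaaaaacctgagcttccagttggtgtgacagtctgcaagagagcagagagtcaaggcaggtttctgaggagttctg

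**Figure D3:**
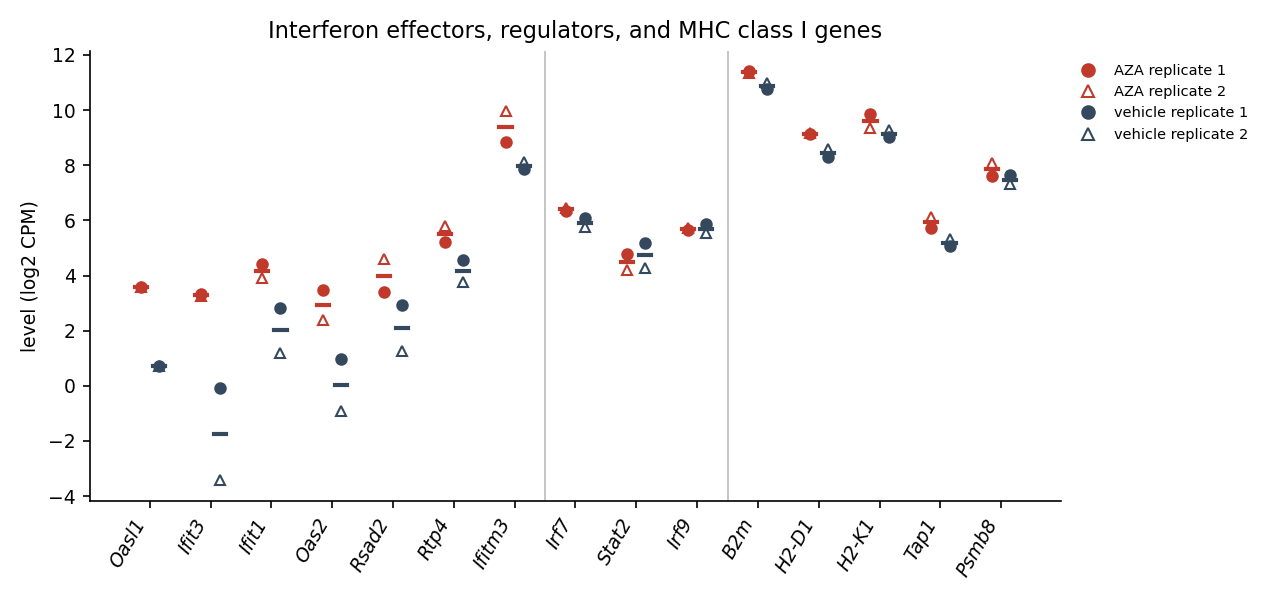
Level of 15 interferon pathway and MHC class I genes in each of the 4 libraries (log2 CPM, 1 point per library), AZA beside vehicle. Oasl1, Oas2 and Ifit1 lie higher in both AZA libraries, while the regulators Stat2 and Irf9 overlap between the groups.

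The sensors upstream of interferon had differences of either sign, and how they compare with the effectors was not tested. Of 10 measured sensors and adaptors, 3 had both AZA libraries above both vehicle libraries (30%, background 13.1%) and 2 had them below (20%, background 15.3%). The median difference was 0.26. Over genes with a mean of at least 3 log2 CPM it was 0.12, against 0.16 for the effectors. That median was 0.36 without AZA replicate 1, 0.18 without AZA replicate 2, 0.29 without vehicle replicate 1 and 0.11 without vehicle replicate 2. Dhx58, an RNA helicase also named LGP2 that works with the double-stranded RNA sensors, stood at 4.53 and 4.43 log2 CPM in the AZA libraries and 3.65 and 3.59 in the vehicle libraries, a difference of 0.86 ± 0.34 (SE). Zbp1, a sensor of Z-form nucleic acid, stood at 2.81 and 3.58 log2 CPM in the AZA libraries and 1.41 and 2.03 in the vehicle libraries. Aim2, a sensor of cytosolic DNA, had a difference of 0.31 ± 0.32 (SE). All 3 were higher in both AZA libraries. Sting1, the adaptor of the cytosolic DNA pathway, stood at 6.59 and 6.64 log2 CPM in the AZA libraries and 6.99 and 6.83 in the vehicle libraries, below vehicle in both. Mavs, the adaptor of the double-stranded RNA sensors, had a difference of -0.17 ± 0.38 (SE).

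Of 16 measured interferon receptors, kinases and transcription factors, 1 was higher in both AZA libraries (6.25%, background 13.1%) and 2 were lower (12.5%, background 15.3%). The median difference was 0.04. Leaving out 1 library gave medians between 0.01, without AZA replicate 1, and 0.14, without AZA replicate 2. Without vehicle replicate 1 it was 0.07 and without vehicle replicate 2 it was 0.09. Irf7, the factor that amplifies interferon production and is itself interferon-induced, stood at 6.36 and 6.46 log2 CPM in the AZA libraries and 6.07 and 5.74 in the vehicle libraries, above vehicle in both. Irf3, which acts first after RNA sensing, stood at 5.39 and 5.14 log2 CPM in the AZA libraries and 5.61 and 5.76 in the vehicle libraries, below vehicle in both. Ifnar2, a chain of the type I interferon receptor, stood at 6.58 and 6.36 log2 CPM in the AZA libraries and 6.75 and 6.74 in the vehicle libraries, also below vehicle. Stat2 and Irf9, factors that act together downstream of the type I receptor and were singled out by their role, overlapped between the groups. Stat2 had a difference of -0.26 ± 0.36 (SE) and Irf9 of -0.01 ± 0.26 (SE).

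MHC class I genes, which present peptides and are interferon-inducible, mostly had positive differences, though none passed the test. Of 22 measured genes, 16 had a positive difference. Both AZA libraries lay above both vehicle libraries for 9 (40.9%, background 13.1%) and below for 1 (4.5%, background 15.3%). Restricted to genes with a mean of at least 3 log2 CPM, the median of the class I list was 0.36, against 0.16 for the effectors. Over all measured members the class I median was 0.41, and it was 0.26 without vehicle replicate 1, 0.43 without vehicle replicate 2, 0.41 without AZA replicate 1 and 0.38 without AZA replicate 2. H2-D1, a classical heavy chain, stood at 9.12 and 9.16 log2 CPM in the AZA libraries and 8.30 and 8.58 in the vehicle libraries, a difference of 0.70 ± 0.20 (SE). B2m, the light chain shared by all class I molecules and the most abundant of the list, stood at 11.41 and 11.36 log2 CPM in the AZA libraries and 10.78 and 10.98 in the vehicle libraries. H2-Q7, a non-classical heavy chain with closely related neighbours, stood at 5.75 and 5.59 log2 CPM in the AZA libraries and 4.23 and 4.50 in the vehicle libraries. Each of the 3 had closely matched AZA libraries above both vehicle libraries. Tap1, a subunit of the peptide transporter, stood at 5.74 and 6.13 log2 CPM in the AZA libraries and 5.07 and 5.32 in the vehicle libraries. Pdia3, a disulfide isomerase of the loading complex, stood at 4.45 and 4.97 log2 CPM in the AZA libraries and 3.46 and 4.07 in the vehicle libraries. H2-M3, which presents formylated peptides, had a difference of 0.60 ± 0.61 (SE). The exception was Psme2, a proteasome activator subunit, at 0.98 and 0.56 log2 CPM in the AZA libraries and 1.80 and 1.97 in the vehicle libraries.

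The genes that carry azacitidine into the cell, activate it and inactivate it lay close to the vehicle level in most cases. Of 24 measured genes of this list, 11 had a positive difference, 2 were higher in both AZA libraries (8.33%) and 3 were lower in both (12.5%), shares below those over all genes, and the median difference was -0.02. Leaving out 1 library gave medians between -0.08, without vehicle replicate 1, and 0.07, without AZA replicate 1. Slc29a1, the main equilibrative nucleoside transporter, stood at 4.88 and 5.11 log2 CPM in the AZA libraries and 4.84 and 5.25 in the vehicle libraries, a difference of -0.05 ± 0.28 (SE). Slc29a2, its relative, stood at 2.87 and 2.91 log2 CPM in the AZA libraries and 3.67 and 3.28 in the vehicle libraries, below vehicle in both libraries. Slc29a3, an intracellular transporter, had a difference of -0.07, and Slc28a2, a concentrative transporter, of 0.24. The exporter Abcg2, known as breast cancer resistance protein, was the exception. It stood at 3.03 and 3.90 log2 CPM in the AZA libraries and 1.85 and 1.50 in the vehicle libraries, a difference of 1.79 ± 0.47 (SE) with a limma adjusted p of 1. Both AZA libraries lay more than 1 log2 unit above both vehicle libraries. Abcc4, another exporter, had a difference of -0.45 with overlap.

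The kinases that activate the drug varied little. Uck2, the uridine-cytidine kinase that phosphorylates azacitidine first, stood at 6.83 and 7.10 log2 CPM in the AZA libraries and 6.74 and 7.22 in the vehicle libraries, a difference of -0.02 ± 0.23 (SE). Uck1 stood at 4.12 and 4.13 log2 CPM in the AZA libraries and 3.90 and 4.05 in the vehicle libraries, above vehicle by a narrow margin. Differences were 0.03 for Uckl1, a kinase-like relative, and -0.07 for Cmpk1, the next kinase in the path. The nucleoside diphosphate kinases had differences of -0.06 for Nme1, 0.01 for Nme2, -0.02 for Nme3, -0.15 for Nme4 and 0.49 for Nme6. Dck, deoxycytidine kinase, which activates the deoxy analogue decitabine, had a difference of 0.41 ± 0.40 (SE) with overlap. Ribonucleotide reductase links the RNA and DNA routes. Its large subunit Rrm1 stood at 7.28 and 7.43 log2 CPM in the AZA libraries and 7.50 and 7.67 in the vehicle libraries, below vehicle by a small margin. The S-phase small subunit Rrm2 stood at 6.97 and 7.28 log2 CPM in the AZA libraries and 6.52 and 7.19 in the vehicle libraries, with overlap. The p53-inducible small subunit Rrm2b stood at 2.17 and 1.81 log2 CPM in the AZA libraries and 2.36 and 2.39 in the vehicle libraries, below vehicle in both. Cda, cytidine deaminase, which inactivates the drug, was weak and overlapping at 0.98 and 3.07 log2 CPM in the AZA libraries and 2.03 and 1.27 in the vehicle libraries. Dctd, Samhd1, Ctps and Ctps2, enzymes of deoxynucleotide and CTP pools, had differences of 0.11, -0.19, -0.21 and 0.03. For de novo pyrimidine synthesis, 5 of 8 genes had a positive difference and the median was 0.11, between -0.11 without AZA replicate 2 and 0.27 without AZA replicate 1.

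The DNA methylation machinery, which holds the target of the drug, had a median difference near 0. Of 20 genes, all measured, 7 had a positive difference. In both AZA libraries 1 was higher (5%, background 13.1%) and 3 were lower (15%, background 15.3%), shares not above those over all genes. The median of -0.08 became -0.35 without AZA replicate 1, 0.05 without AZA replicate 2, -0.15 without vehicle replicate 1 and 0.07 without vehicle replicate 2. Dnmt1, the maintenance methyltransferase, stood at 7.93 and 7.44 log2 CPM in the AZA libraries and 7.97 and 7.96 in the vehicle libraries. AZA replicate 1 lay just under the vehicle libraries and replicate 2 further below, a difference of -0.28 ± 0.21 (SE). Dnmt3a, a de novo methyltransferase, stood at 6.25 and 5.97 log2 CPM in the AZA libraries and 6.81 and 6.26 in the vehicle libraries, a difference of -0.43 ± 0.26 (SE) with groups that nearly met. Dnmt3b, the other de novo enzyme, had a difference of -0.17 ± 0.40 (SE) with overlap. Dnmt3l, their catalytically inactive cofactor, was weak, at 2.26 and 3.23 log2 CPM in the AZA libraries and -2.74 and 2.03 in the vehicle libraries, where replicate 1 was at the lowest value. Uhrf1, which brings Dnmt1 to replicated DNA, stood at 8.53 and 8.86 log2 CPM in the AZA libraries and 8.62 and 8.76 in the vehicle libraries, a difference of 0.01 ± 0.20 (SE). Hells, a chromatin remodeller needed for methylation, had a difference of 0.21, and Uhrf2 of -0.28.

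The dioxygenases that oxidize methylcytosine had differences of either sign. Tet3 stood at 2.97 and 3.23 log2 CPM in the AZA libraries and 4.20 and 3.93 in the vehicle libraries, below vehicle in both, with a difference of -0.97 ± 0.37 (SE). Tet2, often mutated in myeloid leukemia, stood at 5.42 and 3.67 log2 CPM in the AZA libraries and 4.38 and 3.91 in the vehicle libraries, and the AZA values enclosed those of vehicle. Tet1 had a difference of -0.57 ± 1.24 (SE) with overlap. The glycosylase Tdg and the methyl-binding proteins Mbd1, Mbd2, Mbd3, Mbd4, Zbtb33 and Zbtb38 had differences between -0.23, for Zbtb38, and 0.06, for Zbtb33. Idh1, the gene whose mutant form AG120 inhibits, stood at 8.22 and 8.08 log2 CPM in the AZA libraries and 7.58 and 8.32 in the vehicle libraries. Idh2, its mitochondrial relative, stood at 9.29 and 8.92 log2 CPM in the AZA libraries and 9.31 and 9.24 in the vehicle libraries. Both overlapped between the groups. Counts at transcript 3′ ends do not tell a mutant from a wild-type transcript here.

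Germline and imprinted genes, classes silenced or dosed by DNA methylation, were mostly outside the table, and those measured were more often lower than higher in both AZA libraries. Of 89 germline genes listed, 10 were measured, with 1 higher in both AZA libraries (10%, background 13.1%) and 3 lower (30%, background 15.3%). The median of -0.31 became -0.63 without AZA replicate 1, 0.24 without AZA replicate 2, -0.20 without vehicle replicate 1, -0.59 without vehicle replicate 2 and -0.05 over genes with a mean of at least 3 log2 CPM. Rec8, a meiotic cohesin subunit, was the higher one, at 1.33 and 2.54 log2 CPM in the AZA libraries and 1.30 and -1.49 in the vehicle libraries. Tdrd5, a tudor protein of the piRNA pathway, stood at 2.92 and 2.50 log2 CPM in the AZA libraries and 3.46 and 3.69 in the vehicle libraries, below vehicle. Of 15 measured imprinted genes, none was higher in both AZA libraries and 5 were lower (33.3%), with a median of -0.25. That median was -0.14 without AZA replicate 2, -0.28 without AZA replicate 1, -0.21 without vehicle replicate 1 and -0.30 without vehicle replicate 2. H13, a signal peptide peptidase and the most abundant of the list, stood at 8.38 and 8.34 log2 CPM in the AZA libraries and 8.63 and 8.61 in the vehicle libraries, a small but clean separation. Blcap had a difference of -0.48 ± 0.37 (SE).

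Xlr4c had the smallest unadjusted p of the table. It belongs to an X-linked lymphocyte-regulated gene family in which Xlr4b and Xlr4c are imprinted in mouse brain. Xlr4c stood at -2.25 and -3.43 log2 CPM in the AZA libraries, 1 and 0 distinct values above the lowest, and at 3.16 and 2.31 in the vehicle libraries, 53 and 32 above it. Both AZA libraries were thus at or beside the floor and both vehicle libraries were well above it, so the fitted difference of -5.58 ± 0.79 (SE) depends on the value given to an absence of reads. The limma adjusted p was 0.26. On the AG120 background the order was the opposite. Xlr4c stood at 3.60 and 3.35 log2 CPM in the AG120_AZA libraries and 1.28 and 0.56 in the AG120 libraries. Neighbouring Xlr4b stood at 5.58 and 5.30 log2 CPM in the AZA libraries and 5.87 and 5.12 in the vehicle libraries, with overlap, and Xlr4a, also overlapping, had a difference of -1.13 ± 1.68 (SE). Reads of these paralogs may be divided uncertainly. The promoter window of Xlr4c (chrX:73243081-73243380, minus strand, RefSeq, GRCm38.p6, 5′ to 3′) is shown because CpG dinucleotides are the sites azacitidine acts on. It holds 7, in capitals, against a median of 8 over the genes of the RefSeq promoters, taking each gene's richest window, and a median of 22 over the 9244 genes of the expression table that have a window. Methylation at these sites was not analysed here.
Xlr4c: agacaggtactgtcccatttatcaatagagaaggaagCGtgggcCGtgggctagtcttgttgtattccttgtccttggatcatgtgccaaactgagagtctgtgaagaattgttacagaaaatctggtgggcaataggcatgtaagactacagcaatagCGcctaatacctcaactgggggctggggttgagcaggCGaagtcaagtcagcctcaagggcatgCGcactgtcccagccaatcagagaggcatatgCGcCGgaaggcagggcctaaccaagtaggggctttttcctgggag

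Genes of the p53 response are known to be induced by DNA damage from incorporated azacitidine. Of 37 measured, 10 were higher in both AZA libraries (27.0%, background 13.1%) and 1 was lower (2.70%, background 15.3%). The median was 0.15, and 0.02 without vehicle replicate 2, 0.35 without vehicle replicate 1, 0.13 without AZA replicate 1 and 0.18 without AZA replicate 2. Ccng1, cyclin G1, stood at 6.58 and 6.83 log2 CPM in the AZA libraries and 6.14 and 6.11 in the vehicle libraries, a difference of 0.58 ± 0.27 (SE). Gdf15, a stress cytokine, stood at 3.44 and 3.16 log2 CPM in the AZA libraries and 2.84 and 1.80 in the vehicle libraries. Perp, an apoptosis effector in the membrane, stood at 6.69 and 7.09 log2 CPM in the AZA libraries and 6.68 and 5.51 in the vehicle libraries. For Gdf15 and Perp vehicle replicate 2 was clearly the lowest, and for Perp the other vehicle library lay just under AZA replicate 1. Cdkn1a, the cell cycle inhibitor p21 and the best-known target, chosen for its role, overlapped at 5.62 and 6.11 log2 CPM in the AZA libraries and 5.78 and 4.20 in the vehicle libraries. Mdm2, which degrades p53, had a difference of 0.11 ± 0.24 (SE). Ddb2, a DNA repair protein, was lower in both AZA libraries, with a difference of -0.69 ± 0.42 (SE). In the BCL2 family 2 of 12 measured genes were higher in both AZA libraries and 2 lower, with a median of -0.07. Each share was 16.7%, near the 13.1% and 15.3% over all genes. Without 1 library that median lay between -0.22, without vehicle replicate 2, and 0.13, without vehicle replicate 1. Bcl2l11, the pro-apoptotic BIM, stood at 4.10 and 3.19 log2 CPM in the AZA libraries and 4.11 and 4.24 in the vehicle libraries. Bcl2, the survival factor that venetoclax inhibits, stood at 5.28 and 5.30 log2 CPM in the AZA libraries and 5.82 and 5.38 in the vehicle libraries. Both were lower in both AZA libraries. The 2 higher genes were Bax and Bid. Bax was weak, at 0.56 and 1.59 log2 CPM in the AZA libraries and 0.24 and 0.39 in the vehicle libraries. Bid stood at 6.54 and 6.33 log2 CPM in the AZA libraries and 6.24 and 6.07 in the vehicle libraries.

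Stem and progenitor genes leaned lower. Of 31 measured genes, 9 had a positive difference. In both AZA libraries 7 were lower (22.6%, background 15.3%) and 2 were higher (6.45%, background 13.1%). The median was -0.21, and it was 0.04 without vehicle replicate 1, -0.08 without AZA replicate 2, -0.29 without vehicle replicate 2 and -0.41 without AZA replicate 1. Prdm16, a transcriptional regulator of hematopoietic stem cells, stood at 3.01 and 3.58 log2 CPM in the AZA libraries and 4.55 and 4.10 in the vehicle libraries, a difference of -1.03 ± 0.43 (SE). Cd93, a surface antigen of early progenitors, stood at 8.68 and 8.44 log2 CPM in the AZA libraries and 8.90 and 8.93 in the vehicle libraries, a difference of -0.36 ± 0.22 (SE). Mycn, a MYC family factor of stem cells, stood at 2.77 and 0.72 log2 CPM in the AZA libraries and 2.84 and 3.04 in the vehicle libraries, set mostly by AZA replicate 2. The 2 higher genes were Cd48 and Procr. Cd48, which marks progenitors that have left the stem cell state, stood at 6.43 and 6.54 log2 CPM in the AZA libraries and 6.06 and 5.98 in the vehicle libraries. Procr was weak, at 1.57 and 1.73 log2 CPM in the AZA libraries and -2.74 and 0.24 in the vehicle libraries, where replicate 1 was at the lowest value.

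Erythroid genes were uneven between the AZA libraries. Of 31 measured genes, 8 were higher in both AZA libraries (25.8%, background 13.1%) and 1 lower (3.23%, background 15.3%), with a median of 0.29. Without AZA replicate 1 that median was 1.00, and without AZA replicate 2 it was -0.05. Without vehicle replicate 1 it was 0.45 and without vehicle replicate 2 it was 0.26. Klf1, the master factor of red cell genes, stood at 2.94 and 3.81 log2 CPM in the AZA libraries and 2.70 and 2.47 in the vehicle libraries. Aqp1, a water channel of red cells, stood at 3.79 and 4.93 log2 CPM in the AZA libraries and 3.37 and 3.66 in the vehicle libraries. Hbb-bs, a beta globin, stood at 10.40 and 11.63 log2 CPM in the AZA libraries and 10.62 and 10.10 in the vehicle libraries, with overlap. In each of the 3 AZA replicate 2 was the highest. The 6 erythroid markers summed to 1539 and 3530 CPM in the AZA libraries and to 1882 and 1267 CPM in the vehicle libraries, and their part in these values was not tested. Of 20 measured megakaryocyte genes, 3 were higher in both AZA libraries (15%, background 13.1%) and 2 lower (10%, background 15.3%). The median was 0.22, and it was 0.10 without AZA replicate 2, 0.32 without AZA replicate 1, 0.35 without vehicle replicate 1 and 0.31 without vehicle replicate 2. Pf4, platelet factor 4, stood at 10.62 and 10.78 log2 CPM in the AZA libraries and 10.42 and 10.96 in the vehicle libraries, which enclosed the AZA values.

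Proliferation and growth genes were close to vehicle. Their median difference was 0.08 over 40 DNA replication genes, 0.04 over 39 mitosis genes and 0.04 over 36 MYC and ribosome biogenesis genes. Leaving out 1 library gave medians between -0.09, for the MYC list without AZA replicate 2, and 0.19, for the same list without AZA replicate 1. Prim1, the catalytic subunit of primase, stood at 6.29 and 6.37 log2 CPM in the AZA libraries and 5.74 and 5.64 in the vehicle libraries, above vehicle in both. Mcm5, a subunit of the replicative helicase, stood at 7.15 and 7.43 log2 CPM in the AZA libraries and 7.58 and 7.82 in the vehicle libraries, below vehicle in both. Pttg1, securin, which holds sister chromatids until anaphase, stood at 6.27 and 6.65 log2 CPM in the AZA libraries and 5.92 and 5.81 in the vehicle libraries. Of 26 immediate early and heat shock genes, 5 were higher in both AZA libraries and none lower, with a median of 0.37 that was -0.08 without vehicle replicate 2, 0.11 without AZA replicate 1, 0.54 without AZA replicate 2 and 0.84 without vehicle replicate 1. Egr1, a factor induced within minutes of stimulation, stood at 6.35 and 6.43 log2 CPM in the AZA libraries and 5.69 and 3.83 in the vehicle libraries. Fos, a subunit of AP-1, stood at 5.22 and 4.95 log2 CPM in the AZA libraries and 4.45 and 3.73 in the vehicle libraries. For both the vehicle libraries lay apart from each other, with replicate 2 lower. Of 22 cholesterol synthesis genes, 7 were higher in both AZA libraries (31.8%, background 13.1%) and none lower (background 15.3%). The median was 0.14, and it was 0.03 without vehicle replicate 1, 0.05 without AZA replicate 2, 0.35 without AZA replicate 1 and 0.48 without vehicle replicate 2. Ebp, a sterol isomerase, stood at 5.31 and 5.57 log2 CPM in the AZA libraries and 4.63 and 4.85 in the vehicle libraries, and Dhcr7, the last reductase of the path, had a difference of 0.79 ± 0.34 (SE). Of the lists for cells outside the myeloid, erythroid and megakaryocyte lines, 2 of 14 B cell genes, 8 of 19 T and NK cell genes and 1 of 13 stromal genes were measured, and none was higher in both AZA libraries.

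The remaining genes taken by the naming rule on the higher side were Nefh and Cyp4f18. Nefh, the heavy neurofilament chain, stood at 4.35 and 5.16 log2 CPM in the AZA libraries and 2.32 and 2.62 in the vehicle libraries, a difference of 2.29 ± 0.54 (SE). Cyp4f18, a cytochrome that inactivates leukotriene B4, stood at 4.30 and 5.12 log2 CPM in the AZA libraries and 3.09 and 3.54 in the vehicle libraries. It overlaps Zfp961 on the opposite strand, and counting by strand is not stated. Just outside the 12 higher genes lay Stfa2l1 and Adam8, described above.

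The 12 lower genes, Irf8 among them, have varied roles. Bcas3, a cytoskeletal and autophagy protein, stood at 2.68 and 2.50 log2 CPM in the AZA libraries and 4.55 and 3.81 in the vehicle libraries, a difference of -1.59 ± 0.37 (SE) with a limma adjusted p of 0.971. Unc45a, a myosin chaperone, stood at 2.77 and 1.81 log2 CPM in the AZA libraries and 3.83 and 3.85 in the vehicle libraries. Pam, the enzyme that amidates peptide hormones, stood at 3.87 and 3.04 log2 CPM in the AZA libraries and 4.89 and 4.82 in the vehicle libraries. Bcas3 and Unc45a lay more than 1 log2 unit below vehicle in every pairing of libraries, and Pam slightly less. Smg6, the endonuclease of nonsense-mediated decay, stood at 3.89 and 4.04 log2 CPM in the AZA libraries and 5.10 and 4.82 in the vehicle libraries. Trappc9, a vesicle trafficking subunit whose span holds the imprinted transcript Peg13 on the same strand, stood at 4.92 and 5.55 log2 CPM in the AZA libraries and 6.29 and 5.87 in the vehicle libraries. Both AZA libraries were below both vehicle libraries, by less for Trappc9. Babam2, a subunit of BRCA1-A and BRISC deubiquitinase complexes, stood at 7.01 and 7.06 log2 CPM in the AZA libraries and 8.06 and 7.57 in the vehicle libraries. Slc39a11, a zinc transporter, stood at 7.47 and 7.47 log2 CPM in the AZA libraries and 8.11 and 8.39 in the vehicle libraries. The AZA libraries of these 2 genes lay close to each other. Cd3eap, an RNA polymerase I subunit that overlaps Ercc1 on the opposite strand, stood at 5.04 and 5.04 log2 CPM in the AZA libraries and 5.82 and 5.67 in the vehicle libraries. Wdfy4, which serves cross-presentation in dendritic cells, stood at 6.21 and 6.16 log2 CPM in the AZA libraries and 6.97 and 6.75 in the vehicle libraries. Crb2, a polarity protein, and Dennd1a, a Rab35 exchange factor, overlap on opposite strands and had near-identical values, so they may be 1 measurement. Dennd1a stood at 6.0 and 5.83 log2 CPM in the AZA libraries and 6.56 and 6.63 in the vehicle libraries. Just outside this list were Atg10, an autophagy enzyme, with a difference of -1.25, and Brms1, a chromatin repressor subunit, with -1.13.

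Many of the lower genes are long. In GENCODE M21, Bcas3 spans chr11:85353167-85826058 and Dennd1a chr2:37798991-38287390. The 12 lower genes had a median span of 270 kb (3.47 to 488 kb), against 7.08 kb (1.19 to 23.5 kb) for the 10 higher genes with a span and 19.9 kb over the 4695 genes with a mean of at least 5 log2 CPM. This pattern was noticed after the values were seen and is a description. Over those 4695 genes the log2 difference and the span correlated at Spearman rho = -0.17 across genes, which share libraries and are not independent. On the AG120 background the same correlation was -0.03. Over all genes with a span the values were -0.08 for AZA against vehicle and -0.10 for AG120_AZA against AG120, so the 2 backgrounds were alike when weakly expressed genes were included. Among genes with a mean of at least 5 log2 CPM, both AZA libraries lay below both vehicle libraries in 13.9% and above in 11.4%. Over 5 classes of span, shortest to longest, the share below was 11.8%, 10.8%, 12.97%, 14.3% and 20.7%. The share above was 14.4%, 12.9%, 11.7%, 9.55% and 8.30% in the same order. On the AG120 background the share below was 23.4%, 25.3%, 21.6%, 20.8% and 21.4%, highest in the second class. Over all genes with a span, the share below was 14.3%, 13.4%, 14.6%, 14.9% and 19.4% without AG120. With AG120 it was 17.99%, 20.8%, 19.98%, 20.98% and 23.7%, so the longest class was the highest on both backgrounds when weakly expressed genes were included. The class of longest genes, with spans of 58214 bp and more, stood at a median of 0.08 and -0.04 above each gene's mean over the 8 libraries in AZA, and at 0.13 and 0.09 in vehicle. AZA replicate 1 was thus close to vehicle replicate 2 in long genes, and AZA replicate 2 was further off.

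**Figure D4:**
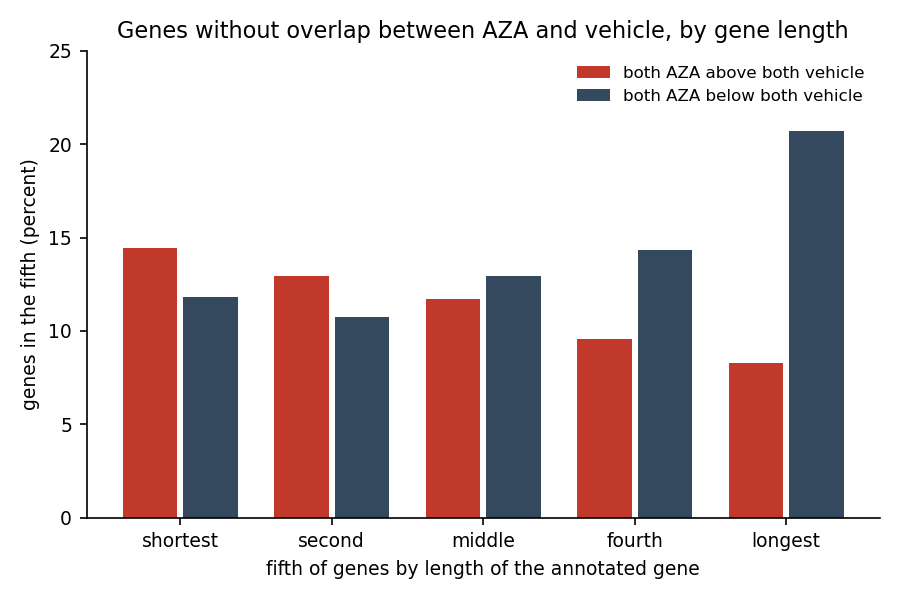
Percent of genes (vertical axis) whose AZA and vehicle libraries do not overlap, by class of annotated gene length (horizontal axis, 5 classes, shortest to longest), with red bars for genes higher and dark bars for genes lower in both AZA libraries, for genes with a mean of at least 5 log2 CPM. The share lower in AZA is 20.7% in the longest class and 11.8% in the shortest, while the share higher in AZA runs the other way.

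Azacitidine was also given on top of AG120, and the values of the members on that background are set beside those above. Limma called 0 of 12294 genes between AG120_AZA and AG120 at an adjusted p below 0.05, with the smallest at 0.183, and 1237 (10.1%) at an unadjusted p below 0.05. It called 213 without AG120_AZA replicate 1 and 7 without AG120 replicate 1. Both AG120_AZA libraries lay above both AG120 libraries for 23.9% of genes and below for 20.6%. The test of whether the 2 azacitidine differences were unequal, the interaction, called 0 genes, with the smallest adjusted p at 0.196, and 765 genes (6.22%) at an unadjusted p below 0.05. It called 29 without AG120_AZA replicate 1, 2 without vehicle replicate 2, and 1 without AG120 replicate 1 or without AG120 replicate 2. AG120_AZA replicate 1 therefore bears on how many genes pass in both.

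Neutrophil lists had medians of opposite sign on the 2 backgrounds. Over all genes, 6091 of 12294 had opposite signs, and the counts here stand beside that share of 49.5%. The mature neutrophil list had a median of 0.88 for AZA against vehicle and -0.53 for AG120_AZA against AG120, with 24 of 35 genes of opposite sign. At an unadjusted interaction p below 0.05 there were 14 of these, and none passed adjustment. The later granule list had medians of 0.77 and -0.89, with 15 of 19 of opposite sign and 9 at an unadjusted interaction p below 0.05. Primary granule genes had medians of 0.20 and -1.18, with 16 of 19 of opposite sign and 11 at that level. Stefins had medians of 2.78 and -0.64. Stfa2 stood at 3.01 and 2.37 log2 CPM in the AG120_AZA libraries and 4.65 and 4.08 in the AG120 libraries, a difference of -1.68 ± 0.66 (SE), and its interaction was -5.31 ± 0.94 (SE) with a limma adjusted p of 0.794. Ltf stood at 4.02 and 3.30 log2 CPM in the AG120_AZA libraries and 5.28 and 2.66 in the AG120 libraries, which enclosed the AG120_AZA values. The 12 neutrophil markers summed to 2841 and 1078 CPM in the AG120_AZA libraries and to 3940 and 6357 CPM in the AG120 libraries, and their part in the opposite signs was not tested.

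Interferon effectors had a positive median on both backgrounds, 0.49 for AZA against vehicle and 0.33 for AG120_AZA against AG120. On AG120 43 of 63 had a positive difference, beside 6378 of 12294 over all genes. Both AG120_AZA libraries lay above both AG120 libraries for 27 of the 63 effectors (background 23.9%). They lay below for 9 (background 20.6%), more than the 2 for AZA against vehicle. Oasl1 stood at 3.03 and 3.52 log2 CPM in the AG120_AZA libraries and 1.72 and 1.67 in the AG120 libraries, a difference of 1.58 ± 0.50 (SE). Oas2 had a difference of 1.53 ± 0.87 (SE) and Ifit1 of 1.34 ± 0.68 (SE) on that background. Ifit3 stood at -1.31 and 1.51 log2 CPM in the AG120_AZA libraries and -1.90 and -1.81 in the AG120 libraries, few distinct values above the floor in all 4. MHC class I genes had a median of -0.25 there, against 0.41 without AG120. B2m stood at 10.34 and 10.24 log2 CPM in the AG120_AZA libraries and 10.72 and 11.27 in the AG120 libraries, a difference of -0.71 ± 0.21 (SE). The effectors and the class I genes therefore had the same sign as each other without AG120 and opposite signs with it.

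Other members differed in level between the backgrounds as well. Abcg2 stood at 3.54 and 3.96 log2 CPM in the AG120_AZA libraries and 2.58 and 2.57 in the AG120 libraries, above in both libraries as in AZA against vehicle. Cda stood at 5.92 and 6.33 log2 CPM in the AG120_AZA libraries and 4.83 and 3.35 in the AG120 libraries, a difference of 2.04 ± 0.68 (SE). Irf8 stood at 4.30 and 4.07 log2 CPM in the AG120_AZA libraries and 3.33 and 3.52 in the AG120 libraries, a difference of 0.76 ± 0.37 (SE), opposite in sign to that against vehicle. Pf4 stood at 11.49 and 11.33 log2 CPM in the AG120_AZA libraries and 9.42 and 7.15 in the AG120 libraries, a difference of 3.12 ± 0.53 (SE), and the megakaryocyte list had a median of 1.71 there. The interaction of Xlr4c was 8.13 ± 1.12 (SE), with a limma adjusted p of 0.196. No interaction of any named gene passed adjustment, so these backgrounds were not shown to differ.

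**Figure D5:**
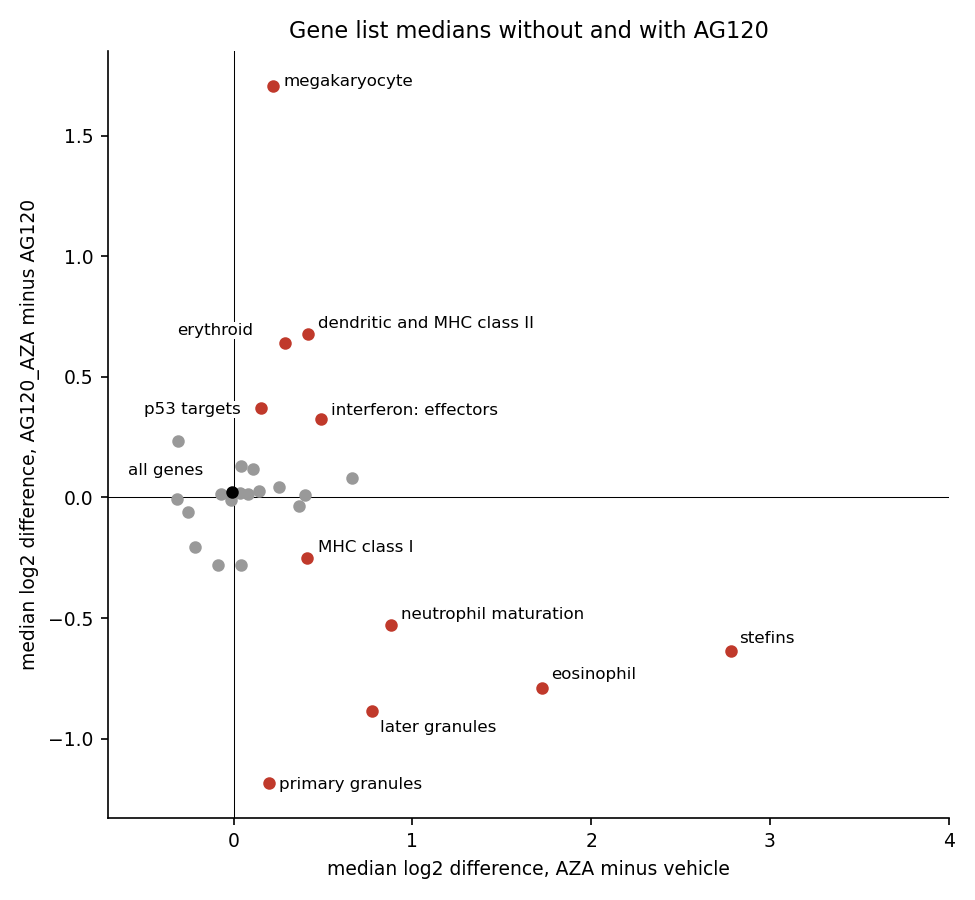
Median log2 difference of each gene list for AZA minus vehicle (horizontal axis) against AG120_AZA minus AG120 (vertical axis), 1 point per list with at least 3 measured genes and a black point for all genes. The stefin, later granule and primary granule lists lie above 0 on the first axis and below 0 on the other, while the interferon effectors lie above 0 on both.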

How the data were processed

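Per the labels' protocols, RNA of sorted leukemic progenitors was made into QuantSeq 3′ libraries. According to the submitters' processing notes the reads went through bcl2fastq (2.17.1.14), trimming by cutadapt is listed (1.14), then come HISAT2 (version 2.1.0), featureCounts, Subread in version 1.6.3, and R 3.6.2 with the packages limma (3.42.2) and edgeR (3.28.1). They name build mm10. The annotation and any use of strand are not given in the sources used here. The deposited table of the authors holds log2 CPM for 12294 genes in 8 libraries, brought to 1 distribution (each library's highest value is 13.37), so depth is unknown. These values were used without filter or rescaling.

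Limma 3.58.1 in R 4.3.3 was fitted to 4 group means over 8 libraries with a mean-variance trend (4 residual and 7.06 prior degrees of freedom). Two-sided p-values were adjusted over 12294 genes (Benjamini-Hochberg), with a threshold of 0.05. They measure only the spread between these libraries, which the labels do not tie to separate mice. Tested on simulated data, the fit recovered 97 of 100 genes changed by 2 log2 units and 100 of 100 changed by 4, with 12 false calls among 12294 genes. Simulated errors were normal, with the same SD for genes of like level, and the changed genes had a mean of at least 3 log2 CPM. Real genes differ in spread at like level, so this recovery does not carry over to them. Stfa2, with a real difference of 3.63 log2 units, had a limma adjusted p of 0.461. Other tables were made with Python 3.11.15. Symbols were matched to GENCODE M21 (12064 of 12294, 98.1%), and promoters are from RefSeq. Some symbols, 60 in 20 sets, share identical values throughout, and no named gene is among them.

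Named by rule were the 12 higher and 12 lower genes of smallest p among those with a mean of at least 3 log2 CPM and no overlap, 5 weaker genes, up to 6 non-overlapping members and the most abundant member of a list, all drug handling and DNA methylation genes, and paralogs. Unnamed gene models were skipped, and some genes that the rule names are not reported here. Further list members named for their role or as exceptions (among them Elane, Ly6g, Csf1r, Cdkn1a, Stat2, Irf9, Rsad2, Oasl2, Mx1, Psme2, Daxx and Sp110) were chosen after their values were seen. All members and lists were chosen with earlier results of these data known. Alternatives were no trend, precision weights by vooma, a filter at 3 log2 CPM, centring on genes above 5 log2 CPM, the replicate block, the 4 compared libraries alone and leaving out each library.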

Additional observations from a re-analysis of the deposited data

How the results depend on the processing

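The other variance models, the replicate block and the filter at 3 log2 CPM leave a difference of group means unchanged. The sign of a named gene could therefore not turn there, nor for the 139 with a value under that filter. Centring moved every AZA against vehicle difference by the same small amount, and no named gene turned its sign. The replicate numbers did not pair the libraries (correlation of replicate differences -0.07 between AZA and vehicle), and with the replicate block limma called 0 genes in that comparison. It called 2 with no trend and 1 on the 4 AZA and vehicle libraries alone (325 genes at an unadjusted p below 0.05), and 0 to 1 on leaving out 1 of 8 libraries, 0 to 213 for AG120_AZA against AG120 and 0 to 29 for the interaction. Over genes with a mean of at least 3 log2 CPM the median was 0.67 for eosinophil, 0.16 for interferon effector and -0.049 for germline genes. Leaving out 1 library gave these ranges of list medians: mature neutrophil 0.21 to 1.40, primary granule -0.37 to 0.82, basophil and mast cell 0.16 to 0.78, interferon regulator 0.010 to 0.14, MHC class I 0.26 to 0.43, germline -0.63 to 0.24, BCL2 -0.22 to 0.13, erythroid -0.054 to 1.00, replication -0.029 to 0.16, immediate early -0.083 to 0.84, cholesterol 0.028 to 0.48 and T and NK cell -1.46 to 0.0032. It turned the sign of 52 of 176 genes, all with groups that overlap. Groups that do not overlap cannot turn sign when 1 library is left out. The ranges for drug handling were Abcc4 -0.97 to 0.084, Cda -0.67 to 1.42, Cmpk1 -0.20 to 0.046, Ctps2 -0.12 to 0.18, Dctd -0.065 to 0.29, Nme1 -0.27 to 0.15, Nme2 -0.16 to 0.18, Nme3 -0.61 to 0.58, Nme4 -0.36 to 0.051, Nme6 -0.097 to 1.08, Rrm2 -0.070 to 0.61, Samhd1 -0.49 to 0.11, Slc28a2 -0.31 to 0.79, Slc29a1 -0.26 to 0.16, Slc29a3 -0.30 to 0.15, Uck2 -0.26 to 0.22 and Uckl1 -0.19 to 0.26. Those for DNA methylation were Dnmt3b -0.61 to 0.27, Hells -0.080 to 0.50, Idh1 -0.17 to 0.57, Idh2 -0.36 to 0.014, Mbd1 -0.47 to 0.35, Mbd2 -0.20 to 0.14, Mbd3 -0.47 to 0.36, Mbd4 -0.33 to 0.45, Tdg -0.99 to 0.56, Tet1 -1.20 to 0.055, Tet2 -0.48 to 1.27, Uhrf1 -0.16 to 0.17, Uhrf2 -0.57 to 0.0060, Zbtb33 -0.23 to 0.35 and Zbtb38 -0.54 to 0.074. Those for other genes were Cd34 -0.42 to 0.19, Cpa3 -0.0077 to 1.36, Csf1r -1.04 to 0.50, Cstb -0.23 to 0.78, Elane -0.84 to 1.41, Irf9 -0.16 to 0.15, Itgam -0.48 to 1.76, Kit -0.91 to 0.21, Ly6c2 -2.14 to 0.78, Lyz2 -0.52 to 1.29, Mavs -0.64 to 0.31, Mdm2 -0.20 to 0.41, Mpo -0.31 to 0.67, Pf4 -0.26 to 0.27, Plac8 -0.65 to 0.57, Prg2 -1.01 to 2.63, S100a8 -0.35 to 2.12, Stat2 -0.71 to 0.19, Xlr4a -2.65 to 0.39 and Xlr4b -0.42 to 0.33. The cause was not tested. With 2 libraries a group and unknown depth, differences of genes near the lowest value, such as Xlr4c, Ifit3 and the Ear genes, depend on the value given to an absence of reads.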
